A study of Mus musculus with 48 samples.

Results

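Ribosome pellets of synaptosomes (SC_SYN) were compared with ribosome pellets of total homogenate (SC_TH) from the cortex of 4 mice aged 5 months. The comparison takes 8 of the 48 libraries of the series, namely both pellets of mice 191, 192, 193 and 194, and pairs them by mouse, since both came from one animal. It was read across all genes of the count table (48526 genes), of which 15602 passed the filter on low counts. The study asks which transcripts are held by ribosomes at synapses and how this changes with age, in 12 mice, 4 at each of 3 ages. All 8 libraries come from untreated male C57BL/6JRj mice of one age, which the sample labels give as 6 months and the protocol as 5 months. The SC_TH group is lysed cortex homogenate and the SC_SYN group is the synaptosome (SYN) layer taken from a sucrose gradient of that homogenate. Each lysate was made in a buffer with cycloheximide and spun through a sucrose cushion, and the pelleted RNA was sequenced. The protocol passes only the homogenate lysates through a needle and clears them by a spin before the cushion. The groups therefore also differ in this step, which cannot be told apart from the compartment. The SYN layer was collected by density without sorting, so it is an enriched fraction and not a pure preparation of synapses, and pelleting through a cushion does not separate single ribosomes from polysomes.

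Synaptosomes are pinched-off nerve endings that reseal during homogenization, often with a piece of the facing postsynaptic membrane attached. Most neuronal mRNAs are translated in the cell body, but some are carried into dendrites and axons and translated there, and fine processes of astrocytes also hold ribosomes. mRNAs of secreted and membrane proteins are translated on ribosomes bound to the endoplasmic reticulum (ER), where a hydrophobic stretch of the growing chain is recognised by the signal recognition particle, whereas mRNAs of soluble proteins are mostly translated on free ribosomes.

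Totals were 8328535 to 14557582 counts in SC_SYN and 5992223 to 13484631 in SC_TH. The first principal component carried 83.3% of the variance and separated the compartments. The SC_SYN library of mouse 191 stood apart from the other 3, with a variance between it and them of 24.5 to 28 times the counting error, against 5.33 to 15.3 times among those 3. The share of counts from mitochondrially encoded genes was 0.697% in that library and 1.25% to 2.17% in the other SC_SYN libraries, against 0.454% to 0.885% in SC_TH. Values below are CPM, counts scaled to a common library size by the TMM method, and are given for mice 191, 192, 193 and 194 in that order. Differences are log2 fold changes of SC_SYN over SC_TH with their standard error (SE) from edgeR's quasi-likelihood test with mouse as a block, and a gene is called where its Benjamini-Hochberg adjusted p over all tested genes is under 0.05.

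Of the 15602 genes tested, 10341 were called (66.3%), 5160 higher in SC_SYN (33.1%) and 5181 lower (33.2%). More than 2-fold differences were called for 2909 genes in the higher and 1947 in the lower direction. The median over all genes tested was -0.06, and 61.7% of genes had no overlap between the 4 SC_SYN and the 4 SC_TH values. TMM places the middle of the gene distribution near 0. Scaled by library size alone, the median moved to -0.65, and 11961 genes were called, 2911 higher and 9050 lower (24.3% of the calls higher, against 49.9% with TMM). Directions below are therefore relative to the bulk of genes. Protein-coding genes were called on both sides (4712 higher and 4121 lower of 13215). Processed pseudogenes, many of them near-identical to ribosomal protein and other short mRNAs, were called higher in 298 and lower in 100 of 887. Transcripts annotated as still to be verified (TEC) were lower in 567 and higher in 19 of 626, with a median of -2.93, and sense intronic transcripts were lower in 58 of 62.

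Among protein-coding genes with at least 100 counts in the higher compartment, the 10 largest differences upward included the microglial genes Tyrobp, Fcer1g and Aif1, and the 10 largest downward included the endothelial genes Ly6c1, Cldn5, Ptprb and Flt1. Arhgap30, which encodes a GTPase-activating protein, had 22.8, 13.3, 14.6 and 19.5 CPM in SC_SYN and 2.2, 2.72, 3.21 and 3.01 in SC_TH (log2 2.66 ± 0.22, edgeR adjusted p = 1.83e-06). Lrp1, a large endocytic receptor for apolipoprotein E and proteases, had 8430, 6484, 7023 and 6896 CPM against 1643, 1272, 1294 and 1564 (5.00-fold, log2 2.32 ± 0.11, edgeR adjusted p = 4.84e-07). In both genes every SC_SYN value lay above every SC_TH value. Zcchc7, which encodes a subunit of the nuclear RNA polyadenylation complex TRAMP, had 2.42, 6.02, 2.75 and 5.45 CPM in SC_SYN and 38.4, 42.9, 38.5 and 36.1 in SC_TH (9.42-fold lower, edgeR adjusted p = 7.62e-07). Among the genes that took the largest share of SC_SYN counts were the glutamate transporter Slc1a2, the lysosomal precursor Psap, the glutamine synthetase Glul and the calsyntenin Clstn1, all protein-coding, and the long noncoding RNA Gm26917.

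**Figure D1:**
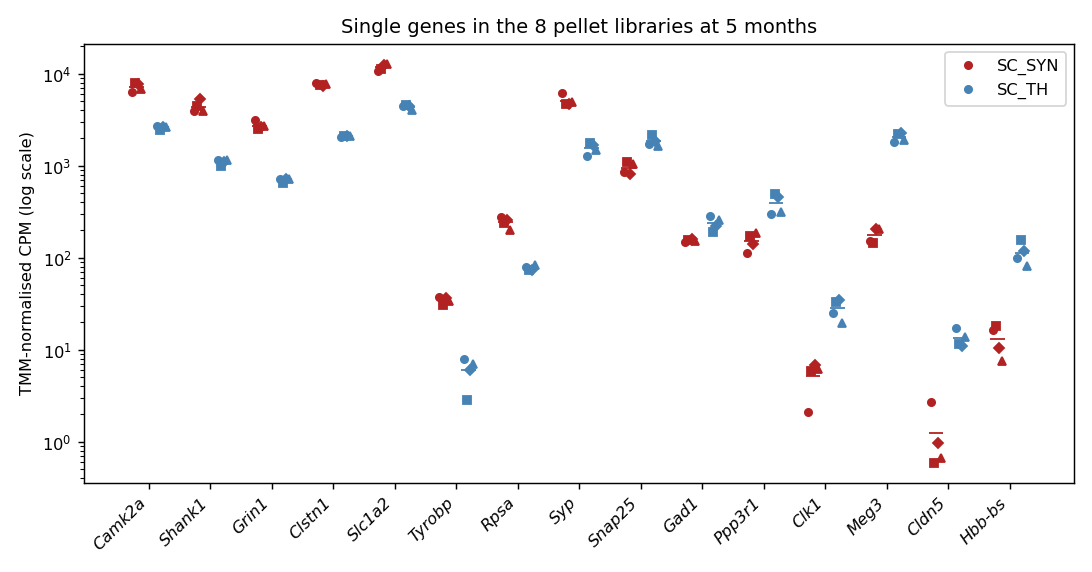
Single genes in the 8 pellet libraries of the 4 mice at 5 months. The vertical axis is TMM-normalised CPM on a log scale, each symbol shape is 1 mouse, red is SC_SYN, blue is SC_TH and the short bars are means. From Camk2a to Syp every red symbol lies above every blue one, and from Snap25 to Hbb-bs every red symbol lies below every blue one.

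Over all genes, the differences went with the hydropathy of the coding sequence, and the gene groups below shared this to different degrees. Each codon was given the hydropathy of the residue it encodes on the Kyte-Doolittle scale, in the longest coding sequence of each gene (13135 nuclear genes with one). Stretches of 19 codons that averaged at least 1.6 were counted as hydrophobic windows, from the start of the sequence and without overlap. This feature was chosen after values had been seen. Of 8372 genes without a window, 1631 were called higher and 3397 lower, with a median of -0.26. Of 731 genes whose single window began within the first 25 codons, where signal sequences lie, 575 were called higher and 39 lower, with a median of 1.10. Genes with 2 to 6 windows were higher in 1414 and lower in 162 of 1867 (median 1.01), and those with 7 or more windows were higher in 377 and lower in 25 of 478 (median 0.97). Genes whose single window lay further inside (1489) or in the last 45 codons (198) had medians of 0.08 and 0.06, near that of all genes.

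**Figure D2:**
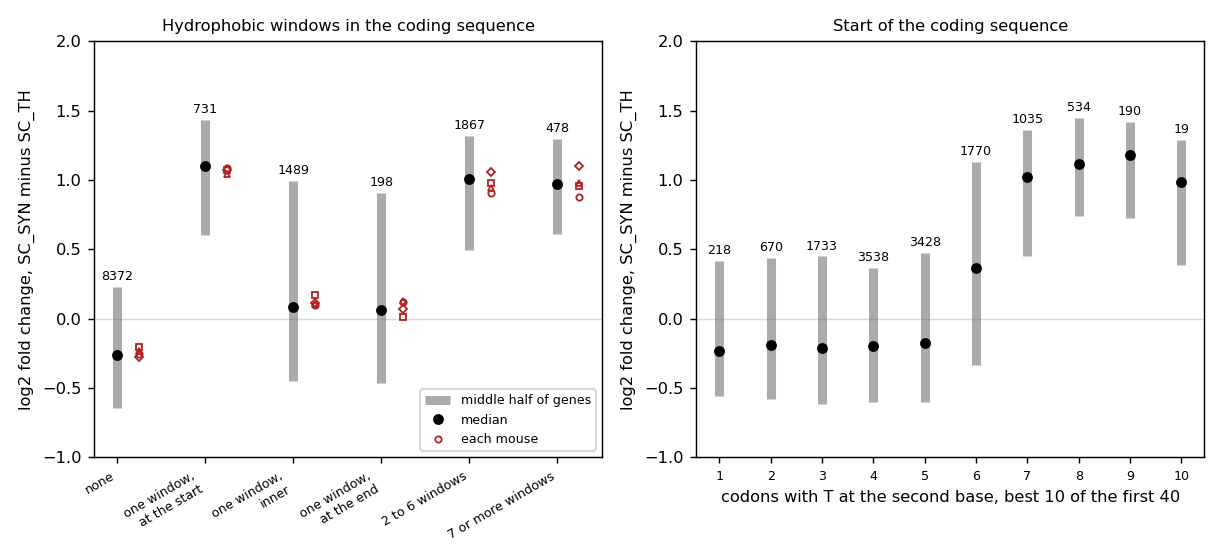
Log2 fold change of SC_SYN over SC_TH at 5 months by the hydropathy of the coding sequence. On the left, genes are classed by their hydrophobic windows, and on the right by the number of codons with T at the second base in the richest 10 of the first 40 codons. Dots are medians, grey bars run from the lower to the upper quartile, numbers are genes per class and red symbols are the medians of each mouse. The medians of all 4 mice lie between 1.04 and 1.09 for genes with 1 window at the start and between -0.27 and -0.20 for genes without a window, and on the right the median passes 0 at 6 codons.

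The medians were close from mouse to mouse. Genes with 1 window at the start had medians of 1.09, 1.08, 1.07 and 1.04 in mice 191 to 194, and genes without a window had -0.26, -0.20, -0.27 and -0.23. The class difference held within each of 5 equal groups of genes by GC content. In the group lowest in GC the medians were -0.60 without a window and 0.80 with 2 or more, and in the group highest in GC 0.05 and 1.27. Across genes, the fold change had a Spearman correlation of 0.455 with the number of windows, 0.301 with GC content, -0.0748 with coding length, 0.0357 with the length of the 5′ untranslated region and -0.0403 with that of the 3′ untranslated region, over 13135 genes of the same 8 libraries. The number of hydrophobic codons at the start was taken as a second measure. All codons with T at the second base encode hydrophobic residues, and the richest stretch of 10 codons among the first 40 was taken in each gene. With 1 to 5 such codons in the stretch the medians lay between -0.23 and -0.18, and they were 0.37 with 6, 1.02 with 7, 1.12 with 8 and 1.18 with 9 codons, and 0.98 in the 19 genes with 10. Not every gene group showed the class difference. Among genes without a window, 72 of 76 cytosolic ribosomal protein genes, 11 of 17 dendritic mRNAs and 14 of 28 cytoskeleton and motor genes were higher. Kinase and phosphatase genes had medians of -0.43 without and -0.46 with a window, and postsynaptic scaffold genes 0.32 without and -0.29 in the 2 genes with one.

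These stretches are shown for 5 genes that were higher in SC_SYN, for 1 membrane protein gene that was lower and for 3 genes without a window that were lower. The genes were picked after their values were seen, to show the contrast between the classes. Each line holds 10 codons of the coding sequence (GENCODE M21, GRCm38), and capitals mark codons with T at the second base.
Clstn3: ATGaccCTCCTGCTGGTGtccCTTTTGCTG
Grin1: ATGcacCTGCTGacaTTCgccCTGCTTTTC
Tyrobp: CTTCTGTTCCTTcctGTCCTCCTGactGTG
Sst: CTGgctgcgCTCtgcATCGTCCTGgctTTG
Hspa5: TTCactGTGGTGgcggcggcgTTGCTGCTG
Cldn5: TTGgaaATTCTGggtCTGGTGCTGtgtCTG
Clk1: ATGagacattcaaagagaacttactgtcct
Tra2a: ATGagtgatGTAgaggagaacaacTTCgag
Dnajb1: ATGggcaaggactactatcagacgCTGggc
The Clstn3 stretch is codons 1 to 10 in exon 1 (chr6:124464455-124464484, minus strand) and holds 8 such codons, and the Tyrobp stretch, codons 10 to 19 in exon 1 (chr7:30413866-30413895, plus strand), also holds 8. Grin1 has 7 in codons 4 to 13 of exon 1 (chr2:25318848-25318877, minus strand). Sst has 6 in codons 10 to 19 of exon 1 (chr16:23890688-23890717, minus strand) and Hspa5 has 6 in codons 4 to 13 of exon 2 (chr2:34772331-34772360, plus strand). Cldn5, the tight junction protein of brain endothelium, has 7 in codons 6 to 15 of exon 1 (chr16:18777011-18777040, plus strand) and 4 hydrophobic windows, and its fold change was nevertheless -3.56. Clk1 has 1 in codons 1 to 10 of exon 2 (chr1:58421905-58421934, minus strand), Tra2a has 3 in codons 1 to 10 of exon 1 (chr6:49263844-49263873, minus strand) and Dnajb1 has 2 in codons 1 to 10 of exon 1 (chr8:83608332-83608361, plus strand). The log2 fold changes were 2.01 for Clstn3, 1.96 for Grin1, 2.54 for Tyrobp, 1.73 for Sst and 1.8 for Hspa5. They were -2.4 for Clk1, -1.98 for Tra2a and -0.94 for Dnajb1.

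**Figure D3:**
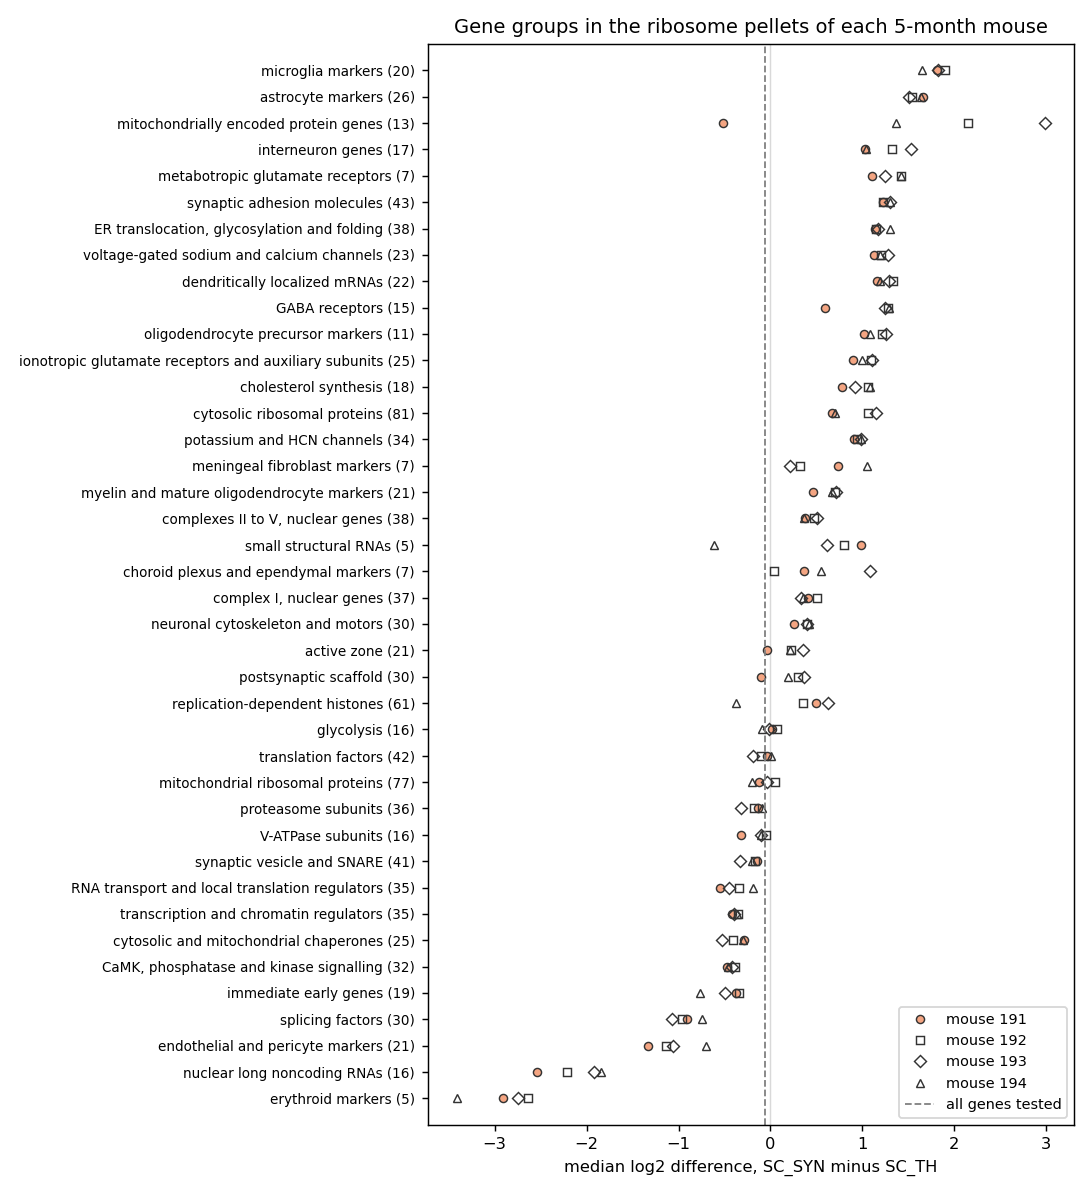
Median log2 difference of 40 gene groups in each of the 4 mice. The horizontal axis is SC_SYN minus SC_TH, numbers in brackets are tested genes, the filled symbol is mouse 191 and the dashed line is the median of all genes tested. The microglia and astrocyte groups lie above 1.5 in every mouse and the erythroid group below -2.6, whereas the mitochondrially encoded genes range from -0.52 in mouse 191 to 2.99 in mouse 193.

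Markers of other cell types moved with the compartment, and their values stand beside every group that follows. All 26 astrocyte markers were called higher in SC_SYN (median 1.59), with a summed level of 43810 to 49910 CPM in SC_SYN and 14170 to 15540 in SC_TH. Of 20 microglia markers 19 were called higher (median 1.82), with summed levels of 1550 to 1946 against 439 to 574. Of 21 markers of myelin and mature oligodendrocytes 16 were higher and 2 lower (median 0.68, sums of 4265 to 4671 against 2400 to 2670 CPM), and of 11 precursor markers 9 were higher and 1 lower (median 1.08, sums of 1332 to 1495 against 553 to 664). Of 21 endothelial and pericyte markers 13 were lower and 5 higher (median -1.07), with overlapping sums of 380.3 to 488 in SC_SYN and 390 to 497 in SC_TH, and all 5 erythroid markers were lower (median -3.05, sums of 20.7 to 50.4 against 236 to 376). No tested marker of these lists was at 0 in any of the 8 libraries. In such bulk fractions, fewer particles of a cell type and less RNA per particle cannot be told apart, and the part of glial RNA in the differences of other groups was not tested.

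Gfap, the intermediate filament of astrocytes, had 1203, 1064, 938 and 1117 CPM in SC_SYN and 224, 273, 251 and 212 in SC_TH (4.51-fold, log2 2.17 ± 0.13, edgeR adjusted p = 6.14e-07). Slc1a2, the main glutamate transporter of astrocytes, had 10690, 11370, 12380 and 12790 CPM against 4411, 4571, 4515 and 4069 (2.69-fold, edgeR adjusted p = 1.62e-06). The groups did not overlap for either gene. Tyrobp, the adaptor of microglial immune receptors, had 37.0, 30.7, 36.6 and 33.9 CPM against 8.0, 2.85, 6.05 and 7.05 (5.83-fold, edgeR adjusted p = 1.19e-06). Csf1r, the receptor that keeps microglia alive, was 3.48-fold higher, and only the P2Y-like receptor Gpr34 among the microglia markers was not called (log2 0.51 ± 0.30, edgeR adjusted p = 0.153), while without mouse 191 it was (0.83, edgeR adjusted p = 0.0189). In contrast to the window classes, 8 astrocyte and 5 microglia markers without a window were all higher, with medians of 1.92 and 2.09.

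Mbp, whose mRNA is carried into the myelin sheath and translated there, had 1423, 1470, 1486 and 1216 CPM in SC_SYN against 689.6, 639.5, 578 and 639 in SC_TH (2.2-fold, edgeR adjusted p = 6.78e-06). Mag, a myelin adhesion protein, was 2.92-fold higher and did not overlap. Cnp, an enzyme of myelin, had 339, 246, 243 and 232 against 246, 220.1, 222 and 239 and was not called (edgeR adjusted p = 0.185), or was lower when scaled by library size alone (-0.41). The lineage transcription factors did not share a single direction, and Olig1 was among the 9 precursor markers called higher. Cspg4, the NG2 proteoglycan of precursors, was higher (log2 1.75 ± 0.11), Olig2 was not called (0.07 ± 0.14, or -0.52 when scaled by library size alone) and Sox10 was lower (-0.56 ± 0.13, edgeR adjusted p = 0.00231).

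Cldn5 had 2.72, 0.59, 0.96 and 0.67 CPM in SC_SYN and 17.2, 11.4, 11 and 13.7 in SC_TH (11.8-fold lower, log2 -3.56 ± 0.28, edgeR adjusted p = 1.49e-06). Flt1, the VEGF receptor of endothelium, had 4.23, 4.84, 3.71 and 4.69 against 45.3, 36.5, 32.5 and 33.1 (8.30-fold lower, edgeR adjusted p = 4.96e-07). Neither gene overlapped between compartments. Col4a2, a chain of basement membrane collagen, had 142, 90.9, 92.7 and 106 CPM against 49.9, 41.5, 38.0 and 46.5 and was higher (2.43-fold, edgeR adjusted p = 3.24e-06), and the glucose transporter Slc2a1 was not called (0.16 ± 0.11, or -0.44 when scaled by library size alone). Of the 18 vascular markers with a hydrophobic window 4 were higher and 11 lower, unlike the window classes over all genes. Hbb-bs, a beta globin chain, had 16.3, 18.3, 10.4 and 7.54 CPM against 98.9, 154, 119 and 80.3 (8.83-fold lower, edgeR adjusted p = 4.96e-07). Globin genes come in near-identical copies, so the split of reads between Hbb-bs and Hbb-bt, or Hba-a1 and Hba-a2, is uncertain. Of 7 meningeal fibroblast markers 4 were higher, among them the proteoglycan Dcn (log2 1.47 ± 0.26), and of 7 choroid plexus and ependymal markers 2 were higher (median 0.40, or -0.19 when scaled by library size alone, 0.16 without mouse 193, 0.62 without mouse 192 and 0.71 without mouse 191). These are 57.1% and 28.6% called, against 66.3% of all tested genes.

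mRNAs known from dendrites were higher in SC_SYN in 16 and lower in 2 of 22 (median 1.22). Camk2a, the alpha subunit of the calcium/calmodulin-dependent kinase of the postsynaptic density, had 6394, 7853, 7663 and 6761 CPM in SC_SYN and 2736, 2426, 2668 and 2653 in SC_TH (2.73-fold, log2 1.45 ± 0.12, edgeR adjusted p = 1.71e-06). Shank1, a scaffold protein of the density, had 3952, 4455, 5280 and 3888 against 1145, 994, 1106 and 1155 (3.97-fold, edgeR adjusted p = 7.05e-07). Neither gene overlapped between compartments. Ppp1r9b, the phosphatase anchor spinophilin, was higher by 1.93 ± 0.11 on the log2 scale, and Arc, whose mRNA moves to active synapses, by 1.18 ± 0.11. Map2, the microtubule protein of dendrites, had 1709, 2587, 2107 and 2194 CPM against 1908, 1814, 1751 and 1631 and was not called (edgeR adjusted p = 0.0896). The mouse 191 value of Map2 in SC_SYN lay below 3 of the 4 SC_TH values, and without mouse 191 Map2 was called higher (0.40, edgeR adjusted p = 0.005), whereas it turned to -0.33 when scaled by library size alone. Of the 17 members of this group without a hydrophobic window, 11 were higher, and of the 5 with one all were higher.

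Most other genes of postsynaptic signalling did not share this. Of 32 kinases, phosphatases and their anchors 22 were lower and 4 higher (median -0.43), and Camk2a differed from the other subunits of its kinase, Camk2b (-0.56), Camk2d (-0.78) and Camk2g (-0.35), which were all called lower, Camk2g no longer so without mouse 192 (-0.33, edgeR adjusted p = 0.0709). Ppp3r1, the regulatory subunit of calcineurin, had 113, 171, 141 and 188 CPM in SC_SYN and 297, 492, 456 and 313 in SC_TH (2.53-fold lower, log2 -1.34 ± 0.15, edgeR adjusted p = 1.52e-05). Akap5, which anchors protein kinase A at the synapse, had 48.8, 60.5, 54.4 and 71.8 against 120.3, 154, 155 and 122 (2.35-fold lower, edgeR adjusted p = 1.18e-05). Neither overlapped between compartments, and the other Camk2 subunits were named after their values were seen. Prkcb, a protein kinase C, was not called (edgeR adjusted p = 0.971) and turned lower when scaled by library size alone (-0.59).

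Postsynaptic scaffold genes were split, with 13 higher, 6 lower and 11 not called of 30 (median 0.21, or -0.39 when scaled by library size alone). Besides Shank1, Shank3 was higher by 1.86 ± 0.13 and the linker Dlgap3 by 1.69 ± 0.12, whereas Dlg4, which encodes the most abundant scaffold of the density, was higher by 0.59 ± 0.12 (edgeR adjusted p = 0.000938), a difference that was gone when scaled by library size alone. Homer1, which links receptors to internal calcium stores, had 134, 137, 106 and 144 CPM against 210.2, 250.3, 204 and 251 (1.77-fold lower, edgeR adjusted p = 4.06e-05). Grip1, an adaptor of AMPA receptors, was lower (log2 -0.96 ± 0.14). Homer1 and Grip1 were chosen after their values were seen. Both genes kept the compartments apart in all 4 mice.

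Transmitter receptors were higher almost without exception. All 25 ionotropic glutamate receptor and auxiliary subunits (median 1.04), all 7 metabotropic glutamate receptors (median 1.28) and 14 of 15 genes of the GABA receptor list (median 1.14) were called higher. Grin1, the obligatory subunit of NMDA receptors, had 3124, 2511, 2618 and 2694 CPM in SC_SYN and 722, 646, 724 and 718 in SC_TH (3.89-fold, log2 1.96 ± 0.11, edgeR adjusted p = 4.96e-07). Gria1, an AMPA receptor subunit, was higher by 1.31 ± 0.11, Grin2b, an NMDA receptor subunit, by 0.76 ± 0.11 (0.16 and not called when scaled by library size alone), and Neto1, an auxiliary subunit, by 0.34 ± 0.13 (edgeR adjusted p = 0.0352), the least of this group. Neto1 was at -0.26 when scaled by library size alone, and it lost its call without mouse 192, 193 or 194 (0.26, 0.36 and 0.34). Grm2, an autoreceptor of glutamate terminals, had 217, 202, 215 and 164 CPM against 63.7, 52.9, 56.2 and 61.2 (3.40-fold, edgeR adjusted p = 8.55e-07), and the postsynaptic Grm5 was higher by 1.28 ± 0.11. Gabrd, the delta subunit of extrasynaptic GABA-A receptors, had 123, 121, 125 and 120 CPM against 43.8, 33.8, 35.5 and 40.3 (3.19-fold, edgeR adjusted p = 9.15e-07). All of these were free of overlap. The exception was Gphn, the cytosolic scaffold gephyrin that clusters GABA-A receptors, with 30.4, 45.4, 40.8 and 51.4 CPM against 65.2, 68.6, 59.5 and 54.8 (1.49-fold lower, edgeR adjusted p = 0.00645). The median of the GABA receptor list was 0.59 in mouse 191 and 1.25 to 1.29 in the other 3 mice.

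Most genes of voltage-gated channels were higher. Of 23 sodium and calcium channel genes 19 were higher and 3 lower (median 1.24), and of 34 potassium and HCN channel genes 33 were higher and none lower (median 0.93). Scn2a, the sodium channel of excitatory axons, had 1309, 1470, 1484 and 1595 CPM in SC_SYN and 532, 629.7, 594 and 473 in SC_TH (2.64-fold, edgeR adjusted p = 2.51e-06). Cacna2d3, an extracellular calcium channel subunit, was higher by 1.53 ± 0.12 and Hcn2, a pacemaker channel, by 1.62 ± 0.11. The 3 lower genes were beta subunits of calcium channels, which are cytosolic, but the fourth beta subunit, Cacnb3, was higher (0.67 ± 0.11, edgeR adjusted p = 0.000254), and the pore-forming subunit Cacna1d was not called (0.15 ± 0.13, edgeR adjusted p = 0.339). Scn2a and the beta subunits were named after their values were seen. Cacnb2 had 15.2, 20.9, 16.1 and 17.7 CPM against 47.6, 43.2, 47.1 and 43.9 (2.61-fold lower, edgeR adjusted p = 7.48e-06) and Cacnb4 was lower at -1.23 ± 0.14. The potassium channel Kcna4 was not called (0.30 ± 0.13, edgeR adjusted p = 0.0585), although its values did not overlap.

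All 43 synaptic adhesion genes were higher (median 1.24, range 0.39 to 2.01). Clstn3, a calsyntenin that promotes synapse formation, had 2925, 2496, 2409 and 2777 CPM in SC_SYN and 658, 646, 644 and 684 in SC_TH (4.02-fold, log2 2.01 ± 0.11, edgeR adjusted p = 4.96e-07). Clstn1 had 8026, 7481, 7325 and 7675 against 2054, 2110, 2088 and 2115 (3.64-fold, edgeR adjusted p = 5.35e-07). The spread between mice was small in both genes beside the difference. Tenm2, a teneurin that binds latrophilins across the cleft, was higher by 1.81 ± 0.12, and the least was Lrfn5, at 0.39 ± 0.11 (edgeR adjusted p = 0.00729), which was not called without mouse 193 (0.36, edgeR adjusted p = 0.0518) and turned to -0.20 when scaled by library size alone.

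Genes of synaptic vesicles and their fusion machinery were divided in nearly equal parts, 17 higher and 20 lower of 41 (median -0.26, or -0.16 without mouse 193). All 17 higher genes had at least 1 hydrophobic window, and of the 17 genes without one 16 were lower and none higher (median -0.75). Syp, an integral protein of the vesicle membrane, had 6101, 4657, 4677 and 4913 CPM in SC_SYN and 1280, 1766, 1681 and 1490 in SC_TH (3.27-fold, log2 1.71 ± 0.15, edgeR adjusted p = 2.36e-06). The calcium sensor Syt1 was higher by 1.31 ± 0.13, the vesicle glycoprotein Sv2a by 1.57 ± 0.11 and the vesicular glutamate transporter Slc17a7 by 1.51 ± 0.12. Snap25, a SNARE that is held on the membrane by lipid anchors, had 859, 1087, 819 and 1032 CPM against 1727, 2182, 1880 and 1644 (1.96-fold lower, log2 -0.97 ± 0.12, edgeR adjusted p = 2.57e-05). Syp and Snap25 thus kept their compartments apart in opposite directions. The small GTPase Rab3c was lower (-1.26 ± 0.14, edgeR adjusted p = 1.27e-05). The SNARE Vamp2 was not called (-0.21 ± 0.11, edgeR adjusted p = 0.105), but was called lower with at least 10 counts in every library (-0.28, edgeR adjusted p = 0.0338), in one fit of 24 libraries (-0.21, edgeR adjusted p = 0.0252) and when scaled by library size alone (-0.80, edgeR adjusted p = 4.29e-05). Not called either was the complexin Cplx2 (0.23 ± 0.10, edgeR adjusted p = 0.0649), which was called higher without mouse 191 (0.26) and lower when scaled by library size alone (-0.36). Syt1, Snap25 and Vamp2 were chosen after their values were seen.

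**Figure D4:**
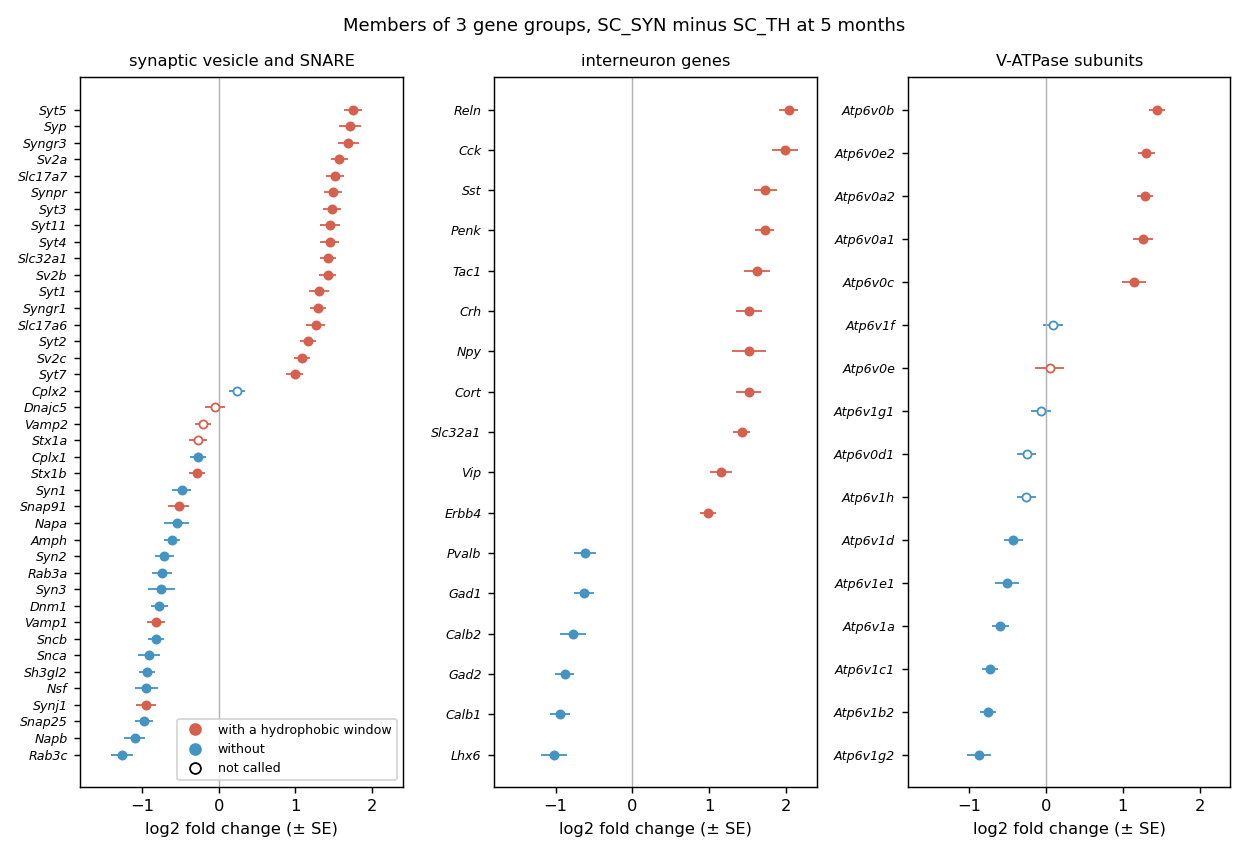
Log2 fold change ± SE of the tested members of 3 gene groups, with 1 vesicle gene not drawn, SC_SYN over SC_TH at 5 months. Red marks genes with a hydrophobic window and blue genes without one, and open symbols were not called. In the vesicle group all 17 genes called higher are red, and in the interneuron and V-ATPase groups all called genes above 0 are red and all called genes below 0 are blue.

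Active zone genes were higher in 10 and lower in 5 of 21 (median 0.26, or -0.34 when scaled by library size alone and 0.16 without mouse 193 or 194). Unc13c, a priming factor, was higher by 1.59 ± 0.15, whereas its relative Unc13b had 20.7, 27.0, 27.1 and 27.7 CPM in SC_SYN and 62.6, 65.5, 59.8 and 55.9 in SC_TH (2.38-fold lower, edgeR adjusted p = 1.09e-05). Bsn, a giant scaffold of the active zone, had 2207, 2667, 2998 and 2526 against 1393, 1195, 1303 and 1387 (1.96-fold, edgeR adjusted p = 3.47e-05). Unc13b and Bsn did not overlap. Pclo, the other giant scaffold, had 514, 939.5, 1033 and 935 against 773, 692, 708 and 615 and was not called (edgeR adjusted p = 0.225), with the mouse 191 value below the SC_TH range. Without mouse 191, Pclo was called higher (0.53, edgeR adjusted p = 0.00105).

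The V-ATPase, the proton pump that fills vesicles, has a membrane part and a cytosolic part. Of 16 subunits 5 were higher and 6 lower. The 5 higher genes belong to the membrane part, such as Atp6v0b with 319.8, 285, 304 and 297 CPM in SC_SYN and 109.8, 111, 110.4 and 113 in SC_TH (2.71-fold, edgeR adjusted p = 1.04e-06) and Atp6v0a1 (1.26 ± 0.13). The 6 lower genes belong to the cytosolic part, such as Atp6v1g2 with 82.1, 114, 126 and 113 against 240.3, 163, 184 and 211 (1.83-fold lower, edgeR adjusted p = 0.000534) and Atp6v1a (-0.59 ± 0.12). Both examples with library values were free of overlap. The 5 genes that were not called came from both parts. Atp6v0e (0.05 ± 0.19) and Atp6v0d1 (-0.25 ± 0.12) belong to the membrane part, and Atp6v1f, Atp6v1g1 and Atp6v1h to the cytosolic one. All of these but Atp6v0d1 were named after their values were seen, as were Atp6v1g2 and Atp6v1a.

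Interneuron genes were divided, with 11 higher and 6 lower of 17. The 11 higher genes all had a hydrophobic window and encode secreted peptides and proteins, a vesicular transporter and the receptor Erbb4. Reln, a secreted glycoprotein, was higher by 2.04 ± 0.13 and the neuropeptide precursor Cck by 1.99 ± 0.17. Sst, the somatostatin precursor, had 626, 397, 492 and 383 CPM in SC_SYN and 155, 102, 144 and 169.7 in SC_TH (3.32-fold, edgeR adjusted p = 2.13e-06). Npy, a neuropeptide precursor, was higher by 1.52 ± 0.22 and Slc32a1, the vesicular GABA transporter, by 1.42 ± 0.11. The 6 lower genes, none of which had a window, encode GABA-synthesising enzymes, calcium-binding proteins and a transcription factor. Gad1 had 147, 156, 159 and 150.1 CPM against 285, 189, 221 and 259.6 (1.54-fold lower, edgeR adjusted p = 0.00108). Sst and Gad1 did not overlap between compartments. Gad2 was at -0.88 ± 0.13, Pvalb at -0.62 ± 0.14, Calb1 at -0.94 ± 0.13 and Lhx6 at -1.02 ± 0.17, all called lower. Npy, Slc32a1 and these lower genes were chosen after their values were seen.

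Genes of ER translocation, glycosylation and folding were higher in 31 and lower in 3 of 38 (median 1.24). Hspa5, the main chaperone of the ER lumen, had 988, 1030, 632 and 1178 CPM in SC_SYN and 253, 357, 201 and 282 in SC_TH (3.49-fold, edgeR adjusted p = 8.55e-07). Rpn2, a subunit of the oligosaccharyl transferase, had 387, 349.8, 339 and 361 against 119.8, 108, 101.2 and 109 (3.28-fold, edgeR adjusted p = 6.14e-07). Both differences were free of overlap. The 3 lower genes encode cytosolic proteins of the signal recognition particle, among them Srp72 (-0.84 ± 0.16, edgeR adjusted p = 0.000656), named after its value was seen, and its partner Srp68 was not called (-0.23 ± 0.14, or called lower at -0.83 when scaled by library size alone). Of 18 genes of cholesterol synthesis and uptake, many of whose products sit in the ER membrane, 17 were higher (median 0.96). Of the 6 genes of this list without a hydrophobic window 5 were higher (median 0.61). The cytosolic enzyme Fdps was not called (-0.18 ± 0.29, or called lower at -0.77 when scaled by library size alone). Fdps had a mean of only 12 counts in SC_SYN and 17.5 in SC_TH.

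Cytosolic ribosomal protein genes were higher in 76 and lower in none of 81 (median 0.94), and 72 of these 76 had no hydrophobic window. Rpsa, a protein of the small subunit, had 280.2, 239, 254 and 198 CPM in SC_SYN and 79.2, 73.1, 72.9 and 83.7 in SC_TH (3.13-fold, edgeR adjusted p = 1.25e-06). Rplp1, of the large subunit stalk, was higher by 1.56 ± 0.16. The 5 that were not called included Rps15a at -0.03 ± 0.14 (called lower at -0.63 when scaled by library size alone), named after its value was seen. Reads of these genes can be shared with their processed pseudogenes. The list median was 0.67, 1.06, 1.15 and 0.71 in mice 191 to 194.

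Translation factors did not follow the ribosomal proteins, with 9 higher, 10 lower and 23 not called of 42 (median -0.03, from -0.08 without mouse 191 to -0.01 without mouse 192). The share called was 45.2%, against 66.3% of all tested genes. The higher genes included Eef2, the translocation factor, with 1404, 1545, 1690 and 1414 CPM against 804, 655, 684 and 738 (2.1-fold, edgeR adjusted p = 1.49e-05), and the poly(A)-binding protein Pabpc1 (1.07 ± 0.10). The initiation helicase Eif4a2 had 179.8, 202, 159 and 219 against 247, 385, 343 and 243 (1.58-fold lower, edgeR adjusted p = 0.00255) and was chosen after its values were seen. None of these 3 genes overlapped.

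Nuclear genes of the respiratory chain were mostly higher or not called, 20 higher and 1 lower of 37 for complex I (median 0.39) and 23 higher and none lower of 38 for complexes II to V (median 0.49). Both medians turned below 0 when scaled by library size alone (-0.21 and -0.11). Cox6a1, a subunit of cytochrome c oxidase, had 463, 284, 318 and 254 CPM in SC_SYN and 112, 74.1, 91.3 and 130.1 in SC_TH (3.22-fold, edgeR adjusted p = 5.78e-06). Ndufa2, of complex I, had 103, 50.4, 54.1 and 42.2 against 25.5, 28.1, 29.5 and 32 (2.05-fold, edgeR adjusted p = 0.00135), and was not called when scaled by library size alone (log2 0.44, edgeR adjusted p = 0.0757). In both genes mouse 191 was the highest SC_SYN library. Atp5b, the catalytic subunit of the ATP synthase, was not called (0.20 ± 0.11) and was called lower when scaled by library size alone (-0.40). Mitochondrial ribosomal protein genes had 4 higher, 13 lower and 60 not called of 77 (median -0.10), with Mrpl52 at 1.00 ± 0.23 (0.41 and not called when scaled by library size alone) and Mrps10 at -0.97 ± 0.20. Only 22.1% of this list was called, against 66.3% of all tested genes.

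The mitochondrial genome gave 13 tested protein genes, of which 11 were called higher (median 1.56). The list median was -0.52 in mouse 191 and 2.15, 2.99 and 1.37 in mice 192 to 194. Gene mt-Co1, the core subunit of cytochrome c oxidase, had 3835, 7082, 11900 and 7519 CPM in SC_SYN and 3184, 1755, 2048 and 2195 in SC_TH (3.18-fold, log2 1.67 ± 0.28, edgeR adjusted p = 0.000326). mt-Co3 had 102, 443, 970.4 and 389 against 303, 91.0, 105 and 162 and was not called (1.42 ± 0.60, edgeR adjusted p = 0.0539). In mouse 191 mt-Co3 was lower in SC_SYN than in SC_TH, and in the other mice it was higher, so that without mouse 191 mt-Co3 was called higher (2.25, edgeR adjusted p = 0.000301). In contrast, mt-Nd6 had 1207, 708, 748 and 1031 against 86.6, 226, 207 and 129 (5.93-fold, edgeR adjusted p = 2.04e-05) and was highest in mouse 191. It lies on the other strand of the mitochondrial genome, and counting without strand cannot tell its reads from antisense RNA.

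No gene of 25 cytosolic and mitochondrial chaperones was higher and 14 were lower (median -0.40). Dnajb1, a co-chaperone of the heat shock response, had 27.9, 33.3, 31.4 and 29.1 CPM in SC_SYN and 58.8, 64.4, 52.8 and 57.9 in SC_TH (1.92-fold lower, edgeR adjusted p = 4.17e-05), and Hsph1 was lower at -0.85 ± 0.13. Of 36 proteasome subunits 10 were lower and 2 higher (median -0.16, or -0.24 without mouse 194), with Psma3 at -0.68 ± 0.17. This is 33.3% called, against 66.3% of all tested genes. The 2 higher genes are immunoproteasome subunits, led by Psmb8 with 9.51, 3.78, 5.26 and 5.45 CPM against 1.83, 0.95, 1.23 and 1.41 (4.37-fold, edgeR adjusted p = 1.11e-05). Of 16 glycolysis genes 3 were higher, 2 lower and 11 not called (31.2% called, also below the share of all tested genes). Aldoc, the aldolase of astrocytes, was higher by 2.02 ± 0.11, and Eno2, the enolase of neurons, had 566, 541, 471 and 508 CPM against 818, 827, 851 and 848 (1.61-fold lower, edgeR adjusted p = 0.000187). Dnajb1, Psmb8 and Eno2 did not overlap between compartments.

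Cytoskeleton and motor genes were higher in 15 and lower in 10 of 30 (median 0.32, or -0.27 when scaled by library size alone). Kif5a, a kinesin heavy chain, had 5625, 8293, 6882 and 7551 CPM in SC_SYN and 1752, 1976, 1879 and 1675 in SC_TH (3.86-fold, edgeR adjusted p = 6.57e-07), and the dynein heavy chain Dync1h1 was higher by 1.76 ± 0.14. Kif3a, another kinesin motor, had 41.4, 57.2, 42.0 and 60.5 against 95.1, 124, 102 and 100.2 (2.11-fold lower, edgeR adjusted p = 1.81e-05) and was chosen after its values were seen. The compartments stayed apart for Kif5a and Kif3a. Of the 28 genes of this list without a hydrophobic window 14 were higher and 9 lower.

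Genes that act on RNA and in the nucleus were mostly lower. Of 35 regulators of RNA transport and local translation 20 were lower and 3 higher (median -0.38). Elavl2, a neuronal AU-rich element binding protein, had 12.7, 18.2, 19.5 and 17.2 CPM in SC_SYN and 50.4, 46.6, 47.2 and 40.9 in SC_TH (2.74-fold lower, edgeR adjusted p = 9.03e-06), and the cytoplasmic polyadenylation factor Cpeb1 was at -1.24 ± 0.13. Fmr1, a translational repressor at synapses, had 25.5, 38.4, 26.5 and 39.5 against 39.4, 66.2, 51.4 and 38.6 and was called lower (edgeR adjusted p = 0.00819), with 1 SC_SYN value above 2 of SC_TH and no call without mouse 192 (-0.46, edgeR adjusted p = 0.0656), and its partner Cyfip1 was higher (0.75 ± 0.11, or 0.16 and not called when scaled by library size alone). Fmr1 and Cyfip1 were chosen after their values were seen. Of 30 splicing factors 28 were lower and none higher (median -0.81). Clk1, a kinase of splicing factors, had 2.11, 5.90, 6.81 and 6.12 CPM against 25.1, 33.3, 34.4 and 19.4 (5.28-fold lower, edgeR adjusted p = 5.29e-06). Tra2a, a splicing regulator, had 14.8, 14.6, 12.4 and 14.8 against 55.2, 55.0, 53.6 and 60.2 (3.96-fold lower, edgeR adjusted p = 7.05e-07). Both were free of overlap, and Hnrnpa2b1 was not called (-0.08 ± 0.18, or called lower at -0.67 when scaled by library size alone).

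Of 35 transcription and chromatin regulators 21 were lower and 3 higher (median -0.39), with Kmt2a, a histone methyltransferase, at -1.29 ± 0.13 and Mef2c, an activity-regulated factor, at -1.13 ± 0.13. Hdac5, a histone deacetylase that leaves the nucleus on activity, had 385, 388, 412 and 345 CPM in SC_SYN and 147, 121, 129 and 167 in SC_TH and was higher (2.73-fold, edgeR adjusted p = 2.96e-06). Of 19 immediate early genes 15 were lower, and Arc was the only 1 that was higher. Egr1 had 152, 229, 223 and 199 CPM against 461, 375, 432 and 377 (2.06-fold lower, edgeR adjusted p = 6.24e-05), Fosb was at -0.93 ± 0.14 and Fos at -0.80 ± 0.13. Arc had 647, 823, 762 and 566 against 311, 315, 327 and 275. The compartments stayed apart in opposite directions for Arc and Egr1.

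Long noncoding RNAs of the nucleus were lower in 13 and higher in 2 of 16 (median -2.24). Meg3 had 152, 145, 207 and 203 CPM in SC_SYN and 1814, 2192, 2282 and 1922 in SC_TH (11.7-fold lower, log2 -3.55 ± 0.14, edgeR adjusted p = 1.94e-07). Malat1, of nuclear speckles, had 845, 846, 1091 and 1847 against 4701, 7332, 6977 and 4408 (5.24-fold lower, edgeR adjusted p = 7.55e-06). The nuclear Ftx was at -4.39 ± 0.22, and Tug1, which is also found in the cytoplasm, was higher (0.40 ± 0.13, edgeR adjusted p = 0.0152) and was named after its value was seen. Tug1 was not called without mouse 193 (0.38, edgeR adjusted p = 0.068) and turned to -0.19 when scaled by library size alone. None of Meg3, Malat1 and Ftx overlapped, and all 3 were still counted in every SC_SYN library. Among genes of other biotypes with at least 100 counts, Gm21781 had the largest difference downward (log2 -5.19 ± 0.41), with 0, 0.24, 0.84 and 0.17 CPM against 12.1, 13.7, 9.73 and 11.7.

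Of only 5 small structural RNAs tested, 2 were higher (Rn7s1 and Rn7s2), 1 was lower and 2 were not called. Their median was 0.45, but -0.15 when scaled by library size alone, 0.26 without mouse 191 and 0.81 without mouse 194. Rn7s1, the RNA of the signal recognition particle, had 102, 48.0, 98.6 and 36.7 CPM in SC_SYN and 16.5, 11.7, 9.73 and 22.7 in SC_TH (4.5-fold, log2 2.17 ± 0.33, edgeR adjusted p = 0.000135), and its near-identical copy Rn7s2 had almost the same difference (2.18 ± 0.33), so that their reads cannot be assigned to one of them. Rmrp, the RNA of a nucleolar and mitochondrial ribonuclease, was 4.19-fold lower (edgeR adjusted p = 1.06e-05), and its whole annotated length overlaps another gene. Rn7sk, a nuclear regulator of transcription elongation, had 199, 134, 199 and 106 against 228, 116, 151 and 279.9 and was not called (edgeR adjusted p = 0.381), or was called lower when scaled by library size alone (-0.84). Of 61 replication-dependent histone genes, whose mRNAs lack a poly(A) tail, 13 were higher, 2 lower and 46 not called (median 0.17, or -0.42 when scaled by library size alone, 0.09 without mouse 193 and 0.45 without mouse 194), and Hist2h2be was higher by 1.39 ± 0.17. Only 24.6% of the histone genes were called, against 66.3% of all tested genes.

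The same contrast was also measured before the cushion, in input RNA of the same 4 mice. There 12172 of 16085 genes were called (75.7%), 5491 higher and 6681 lower in SYN. Of the 10193 genes called in the pellets and tested in both, 9461 had the same sign in the input (92.8%), and across 15170 genes the Spearman correlation of the fold changes was 0.828. Both contrasts come from the same 4 animals. The difference between both contrasts was tested in one model over 16 libraries, and 4351 of 17294 genes departed (25.2%), 2337 with a higher difference in the pellets and 2014 with a lower one. Without mouse 192 or 193 there were 2462 and 2364. Vesicle and SNARE genes had a median of 0.52 in the input and -0.26 in the pellets, and 30 of 41 departed downward and 1 upward. Replication-dependent histones had medians of 0.89 in the input (52 genes) and 0.17 in the pellets (61 genes), and 14 departed downward and 3 upward. Meningeal fibroblast markers had medians of -0.07 (6 genes) and 0.88 (7 genes), and none departed. Transcription and chromatin regulators departed downward in 17 of 35 and upward in none, and adhesion genes in 16 and 2 of 43. Splicing factors departed upward in 18 and downward in 1 of 30 (medians -1.27 in the input and -0.81 in the pellets), and endothelial and pericyte markers upward in 13 and downward in none of 21 (medians -2.54 and -1.07).

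**Figure D5:**
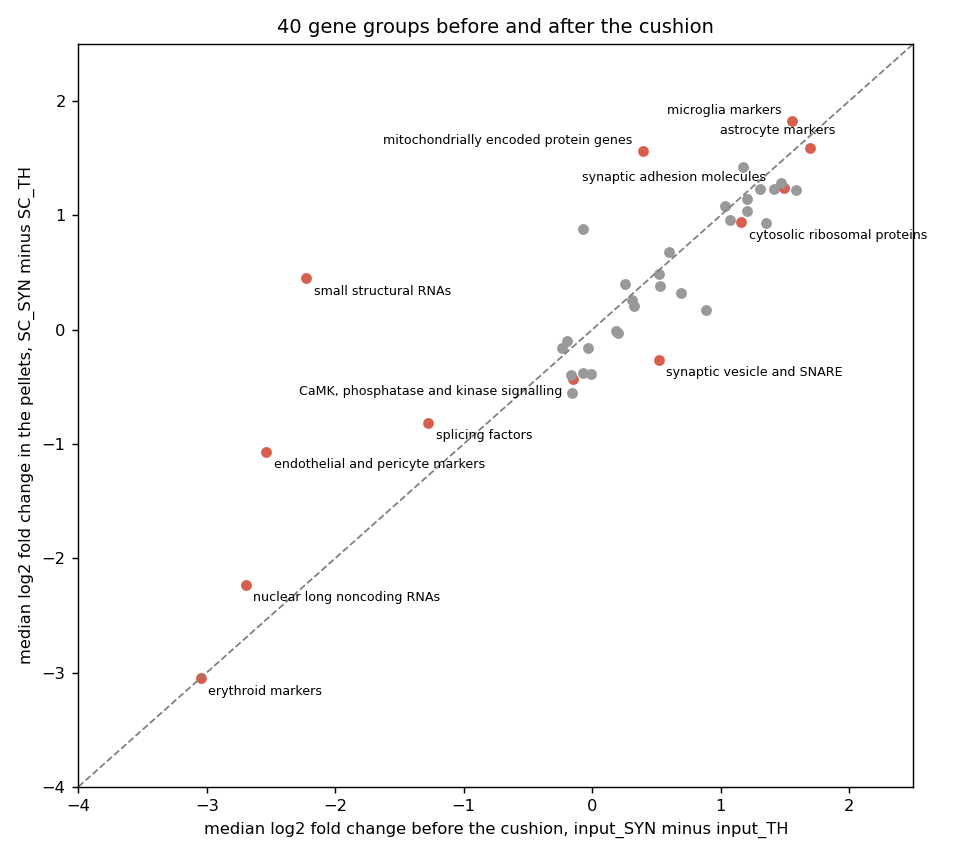
Median log2 fold change of 40 gene groups before the cushion (horizontal axis, input_SYN minus input_TH) and in the pellets (vertical axis, SC_SYN minus SC_TH) at 5 months, with the line of equal values dashed and the named groups drawn in red. Most groups lie along the line. The vesicle and SNARE group and the replication-dependent histones (not labelled) lie below it. The endothelial and pericyte markers, the small structural RNAs, the mitochondrially encoded genes and the meningeal fibroblast markers (not labelled) lie above it.

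Single genes show the size of these departures. Syp was 2.84 ± 0.08 higher in the input on the log2 scale and 1.71 ± 0.15 in the pellets, a departure of -1.06 (edgeR adjusted p = 5.27e-05). Mbp did not differ beyond the test in the input (0.07, edgeR adjusted p = 0.352) and departed by 1.13 (edgeR adjusted p = 2.54e-06). Eno2 was at 0.03 in the input and departed by -0.64 (edgeR adjusted p = 0.000366). Rn7sk was at -2.57 in the input and departed by 2.4 (edgeR adjusted p = 4.65e-06). mt-Rnr2, the large ribosomal RNA of mitochondria, had 887, 1208, 1533 and 1409 CPM in SC_SYN and 376, 340.3, 279.6 and 239.5 in SC_TH and departed by 2.88 from an input value of -0.79 (edgeR adjusted p = 2.07e-07). Among genes with a mean of at least 100 counts in a pellet group, the largest departure upward was the antisense transcript Gm14703 (3.78, edgeR adjusted p = 0.00405). It had 15.4, 31.9, 4.3 and 2.77 CPM in SC_SYN and 0.24, 0.41, 0.38 and 0.28 in SC_TH. Its SC_TH values rest on a mean of only 3.5 counts. About 48.1% of its length overlaps another gene, and its position overlaps that of Syp. Without strand its reads cannot be told from those of an overlapping gene, and the part of such reads was not tested. The window classes had nearly equal medians in both contrasts, 1.08 in the input and 1.10 in the pellets for genes with 1 window at the start, and -0.30 and -0.26 for genes without a window.

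The contrast at 5 months was close to that of the pellets at the other ages, which come from other mice. At 3 weeks 9401 of 14720 genes were called (63.9%), and at 18 months 9820 of 16102 (61%). Of the genes called at 5 months, 98.8% had the same sign at 3 weeks and 96.9% at 18 months. Genes called in both with the same sign were 84.6% of the 5-month and 89.3% of the 3-week calls, and 79.5% of the 5-month and 84.7% of the 18-month calls. Genes with 1 window at the start had medians of 1.13 at 3 weeks, 1.10 at 5 months and 0.78 at 18 months, and genes without a window had -0.22, -0.26 and -0.25.

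A test of the difference between ages, over the 24 pellet libraries, called 10 of 16630 genes between 5 months and 3 weeks (0.0601%), all below 0 at 3 weeks and with a more positive difference at 5 months, and none between 5 months and 18 months (0%). At an unadjusted p under 0.05 there were 1255 and 3105 genes. DESeq2 called 56 and 405 genes in these comparisons. Leaving out 1 mouse gave 2 to 24 genes for 3 weeks, the lowest without mouse 188, 190, 191, 193 or 194 and the highest without mouse 198, and 0 to 285 for 18 months, where 285 was the count without mouse 194. Of the 10 genes 5 are known from the choroid plexus, the tissue that makes cerebrospinal fluid, and its 7 listed markers had summed levels of 40.3 to 642 CPM in SC_SYN and 25.5 to 379.7 in SC_TH at 5 months. Ttr, its main secreted product, had 593, 346, 160.1 and 24.6 CPM in SC_SYN and 341, 189.6, 37.2 and 11 in SC_TH at 5 months, and in both compartments mouse 191 was highest and mouse 194 lowest. Its difference was 1.22 ± 0.19 at 5 months, -1.91 at 3 weeks and 0.50 at 18 months, and the change from 3 weeks to 5 months was 3.12 (edgeR adjusted p = 0.00177). Without pairing by mouse, the 5-month difference of Ttr was 0.95 and that of Kl 0.82, and neither was called (edgeR adjusted p = 0.329 and 0.112). Kl, Aqp1, Clic6 and Mfrp, also known from this tissue, changed by 2.1, 2.22, 2.05 and 3.20. Lncpint, a long noncoding RNA, had 3.77, 3.31, 4.18 and 3.35 CPM against 18.6, 16.4, 18.3 and 17.5 at 5 months and a difference of -2.28, against -3.82 at 3 weeks (change 1.53, edgeR adjusted p = 0.0353). The part that the amount of this tissue in a dissection has in these changes was not tested.

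Among synaptic genes, Shank1 had a difference of 1.01 at 3 weeks and 1.99 at 5 months, and the change of 0.97 was not called (edgeR adjusted p = 0.0883). Camk2a had a difference of 1.11 at 3 weeks, of 1.45 at 5 and of 1.58 at 18 months, and neither change was called (edgeR adjusted p = 0.655 and 0.628). Malat1 had -3.09, -2.39 and -0.55. The lists of dendritic mRNAs, adhesion molecules and astrocyte markers had medians of 0.93, 1.32 and 1.55 at 3 weeks and of 1.13, 1.03 and 1.30 at 18 months, against 1.22, 1.24 and 1.59 at 5 months.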

How the data were processed

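Ribosome pellets and input RNA of cortex were analysed from raw read counts per gene that the authors deposited, summed by featureCounts without strand after TopHat2 2.1 alignment to GRCm38 of reads made with bcl2fastq 2.20.0.422. Libraries were rRNA-depleted and directional with UMI adaptors, and whether duplicates were removed by UMI is not given in the sources used here. PCR copies may therefore be counted, and single counts need not be separate molecules. The 48526 genes were named with GENCODE M21 (48144 matched, the rest 0.0596% of counts).

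Counts of the 8 pellet libraries at 5 months were filtered with filterByExpr, scaled by TMM and tested with edgeR 4.0.16 (quasi-likelihood F test, mouse as a block, Benjamini-Hochberg) in R 4.3.3, and the SE is the fold change divided by the root of F. Departures from the input and between ages were interaction terms in one fit each. Both libraries of a mouse come from one animal, which is where the pairing comes from, and the deviations of its libraries from the group means correlated at -0.102, 0.316, -0.0741 and -0.379 in mice 191 to 194. Totals were 5992223 to 14557582 counts in pellets and 2613680 to 11909098 in input. On simulated counts the test recovered 95 of 100 genes changed by log2 1 and 24 of 100 changed by log2 0.5 in the main comparison, with 8 false calls among 15232 genes. No other simulated gene differed, whereas most genes were called in the data, so these shares do not give the sensitivity of the main comparison.

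Named genes were the 10 largest protein-coding differences in each direction (at least 100 counts, no overlap, no provisional gene names or pseudogenes), the 5 largest of other biotypes, the 4 largest called members of each list with at least 50 counts with its most abundant member and its most abundant member not called, the genes of the largest count shares and the qPCR primers, and the largest departures from input and between ages. Other genes were chosen after their values were seen, whether or not they are marked so. The members, lists and tests were chosen with earlier results of these data known. DESeq2 1.42.0, other scalings and filters and leaving out each mouse were tried as alternatives. Gene lists are described by counts and medians. Levels are not compared between genes. Some genes that the rule names are not reported here.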

Additional observations from a re-analysis of the deposited data

Results flagged for a closer look

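Outlying libraries were looked for with Dixon's test in 343 groups of 4 values, and 17 were flagged. Chance flags about 1 in 20 groups. In SC_SYN, mouse 191 stood apart for Psap (11770 CPM), Rab3c (88.5), Unc13b (20.7), Mag (431), Cnp (339), Csf1r (374) and Clic6 (18.1). In the same fraction mouse 193 stood apart for Tra2a (12.4) and Atp6v0a1 (1234), mouse 194 for Kcna4 (79.6) and mouse 192 for Srp68 (50.2). In SC_TH the outlying values were those of mouse 192 for Grin1 (646) and Neto1 (58.4) and that of mouse 194 for Fosb (42.0). The median paired difference of mouse 191 stood apart for the GABA receptors (0.59), the neuronal cytoskeleton and motors (0.25) and the myelin markers (0.46).

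The log2 difference of SC_SYN over SC_TH was more positive at 5 months than at 3 weeks, by the interaction test, for 10 genes. All 10 were below 0 at 3 weeks, and Lncpint, Gm37524, 9330162G02Rik and Clic6 were below 0 at 5 months too. The changes were those of Gm37524 (3.85 on the log2 scale), Mfrp (3.20), Ttr (3.12), Aqp1 (2.22), Kl (2.1), Clic6 (2.05), Col8a2 (1.77), Lncpint (1.53), 9330162G02Rik (1.10) and Col4a1 (0.95). Their edgeR adjusted p ran from 0.00177 to 0.0424.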

How the results depend on the processing

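Scaled by library size alone, 2911 genes were called higher and 9050 lower. Under this scaling the log2 fold change turned below 0 for Map2 (-0.33), Dlg4 (-0.00068), Prkcb (-0.59), Neto1 (-0.26), Lrfn5 (-0.20), Cplx2 (-0.36), Atp5b (-0.40), Tug1 (-0.19), Cnp (-0.41), Olig2 (-0.52) and Slc2a1 (-0.44), and so did the medians of postsynaptic scaffolds (-0.39), active zone (-0.34), complex I (-0.21), complexes II to V (-0.11), cytoskeleton (-0.27), small structural RNAs (-0.15), histones (-0.42) and choroid plexus markers (-0.19). The glycolysis median ran from -0.0489 to 0.0098 with 1 mouse left out, and was above 0 without mouse 192 (0.0071) or 194. With the trend on GC content and length removed within the replicate block, the medians of translation factors (0.0398), small structural RNAs (-0.37) and histones (-0.22) changed sign, that of active zone genes fell to 0.0017 and that of nuclear long noncoding RNAs went to -1.46. The cause was not tested.

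Without the replicate block, which removes the pairing by mouse, 10727 genes were called in the main comparison, 12203 in the input, 4005 departed from the input, 5 differed between 5 months and 3 weeks and 0 between 5 months and 18 months. The block changed the call of Kcna4, Cplx2 and mt-Co3 (called without it, edgeR adjusted p = 0.0278, 0.0358 and 0.0141) and of Ttr and Kl (lost without it). Calls in the main comparison numbered 9474 with DESeq2, 11593 without the low-count filter, 9032 with at least 10 counts in every library, 11176 in one fit of 24 libraries and 8921 to 10078 with 1 mouse left out. Without the filter Map2, Pclo, Cplx2, Kcna4, Mfrp and mt-Co3 were called higher as well.

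Departures from the input numbered 2364 to 4158 with 1 mouse left out. Between 5 months and 3 weeks, 56 genes were called with DESeq2, 141 without the filter, 6 with at least 10 counts in every library and 2 to 24 with 1 mouse left out. Between 5 months and 18 months these numbers were 405 with DESeq2, 969 without the filter and 0 to 285 with 1 mouse left out. On simulated data with a change of log2 0.5, 24 of 100 genes were called in the main comparison, 6 of 100 as departures from the input, 4 of 100 against 3 weeks and 7 of 100 against 18 months. With a change of log2 1 these numbers were 95, 71, 49 and 51 of 100. In these simulations no other gene differed, unlike in the main comparison of the data.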
